A study of Mus musculus with 6 samples.

Results

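Nup62cl, Tmem30b, Otop1, Ppm1n, Klf14, Arsi and Ecel1 are 7 mouse genes with few or no RNA-seq reads in the wild-type (WT) hippocampus and clear counts in a double knockout (KO). They were chosen by their measured values in this same comparison, as genes that went from almost no WT reads to clear KO counts or that rose over 5-fold from a low WT level. They are 7 of the 48795 genes in the count table and of the 16861 genes with enough reads to be tested. The table holds polyadenylated RNA from the hippocampus of 3 WT and 3 KO libraries. KO mice carried floxed alleles of Kdm1a and of Kdm5c and the tamoxifen-dependent recombinase CreERT2, which the CamKIIα promoter restricts to principal neurons of the forebrain. Both groups received tamoxifen (TMX), both were on the C57BL/6J background, and the mice were 2 to 3 months old when it was given. Whether WT mice carried CreERT2 or the floxed alleles is not given in the sources used here, and other cell types of the KO hippocampus keep both genes. There was no group that lost only 1 of the enzymes, so their separate parts cannot be told apart. Nothing in the labels ties each library to its own animal, and the p-values below describe the spread over these 6 samples alone, which may be technical.

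KDM1A (LSD1) is a histone demethylase that removes mono- and dimethyl groups from lysine 4 of histone H3, and it works with the CoREST complex, a corepressor recruited to neuronal genes outside neurons by REST. KDM5C removes di- and trimethyl groups from the same lysine, a mark of active promoters, and its loss causes intellectual disability in humans. The 7 genes belong to unrelated families. Tmem30b encodes a subunit of lipid flippases, Otop1 a proton channel of sour taste cells and of the vestibular organ, and Klf14 an imprinted zinc finger transcription factor. Arsi encodes a sulfatase, Ppm1n a member of the PP2C phosphatase family, and Nup62cl a protein named for its likeness to the nuclear pore protein NUP62. Ecel1 encodes an endopeptidase that is known from neurons and rises in injured ones, so the working description of these genes as non-neuronal does not cover it.

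RefSeq start windows, from 250 bases before to 50 bases after the annotated start in GRCm38.p6, were found for 5 of the genes, and 4 are shown because they span the range from CpG-rich to CpG-poor. All 4 genes are on the minus strand, and each sequence is given 5′ to 3′ along the gene. Capitals mark the GC box GGGCGG and the CCAAT box, each searched on both strands, with overlapping matches kept. The Nup62cl window, chrX:140062519-140062818, held 21 CpG dinucleotides, 4 GC boxes and 2 CCAAT boxes.
Nup62cl: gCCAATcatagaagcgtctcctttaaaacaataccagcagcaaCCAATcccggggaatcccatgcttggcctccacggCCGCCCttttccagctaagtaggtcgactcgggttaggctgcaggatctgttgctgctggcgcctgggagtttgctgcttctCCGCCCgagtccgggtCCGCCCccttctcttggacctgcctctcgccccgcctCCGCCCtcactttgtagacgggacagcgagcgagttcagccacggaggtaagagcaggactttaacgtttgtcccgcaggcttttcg
The Tmem30b window, chr12:73546346-73546645, held 30 CpG dinucleotides and 6 GC boxes, of which a pair overlapped.
Tmem30b: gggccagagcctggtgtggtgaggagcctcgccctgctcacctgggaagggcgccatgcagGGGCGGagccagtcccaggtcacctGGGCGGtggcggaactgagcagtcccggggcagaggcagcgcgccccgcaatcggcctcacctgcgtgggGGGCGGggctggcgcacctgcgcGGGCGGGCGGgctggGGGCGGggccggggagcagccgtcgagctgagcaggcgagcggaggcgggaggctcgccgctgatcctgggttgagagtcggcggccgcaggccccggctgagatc
The Ppm1n window, chr7:19280000-19280299, was rich in A and T, with 40.7% GC, 6 CpG dinucleotides and none of the motifs searched.
Ppm1n: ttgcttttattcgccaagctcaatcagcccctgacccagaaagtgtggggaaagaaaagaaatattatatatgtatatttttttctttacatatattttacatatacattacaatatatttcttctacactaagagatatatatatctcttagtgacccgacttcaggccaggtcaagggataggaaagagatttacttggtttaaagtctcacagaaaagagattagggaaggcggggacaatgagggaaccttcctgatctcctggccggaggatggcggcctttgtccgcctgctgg
The Ecel1 window, chr1:87156307-87156606, also held 6 CpG dinucleotides, at 59% GC, with 1 CCAAT box.
Ecel1: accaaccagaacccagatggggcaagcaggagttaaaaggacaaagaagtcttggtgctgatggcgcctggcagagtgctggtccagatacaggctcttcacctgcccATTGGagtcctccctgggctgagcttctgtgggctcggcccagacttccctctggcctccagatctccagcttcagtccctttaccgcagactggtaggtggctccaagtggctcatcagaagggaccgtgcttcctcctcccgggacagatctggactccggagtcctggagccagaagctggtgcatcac

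Among the 32851 windows of this length in the RefSeq table, the median ratio of observed to expected CpG was 0.384. It was 0.797 for Nup62cl, 0.717 for Tmem30b, 0.521 for Otop1, 0.487 for Ppm1n and 0.23 for Ecel1, so 4 of the 5 lay above the median and Ecel1 lay below it. The GC box, the site of SP and KLF factors, was in 3 of the 5 windows (Nup62cl, Tmem30b, Otop1) and in 35.7% of all windows. The CCAAT box was in 2 of the 5 and in 37.4% of all windows. None of the 5 windows held the E-box CACGTG (7.15% of all windows), the E2F site TTCCCGCC (2.19%), the cAMP response element TGACGTCA (1.79%) or the TATA box TATAAA (13.6%). Nor did any hold either part of RE1, the site of REST, searched as TTCAGCACC (0.371%) and GGACAGCGC (0.405%). No motif searched was in all 5 windows. The RefSeq start of Otop1 lies 1432 bases downstream of the GENCODE M21 gene start, so its window may not be the start in use. Klf14 and Arsi were not among the windows matched.

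Libraries held 19309576 to 19700249 gene counts. Levels are counts per 1000000 (CPM), scaled between libraries by TMM. Kdm1a stood at 75.2, 76.6 and 69.2 CPM in WT and at 38.0, 37.6 and 40.0 CPM in KO, a fall of log2 -0.93 (SE 0.0651, edgeR quasi-likelihood adjusted p = 4.32e-07). Kdm5c stood at 78.4, 82.9 and 77.2 CPM in WT and at 74.3, 72.1 and 65.3 CPM in KO, with log2 -0.17 and an edgeR adjusted p of 0.143. These totals cover the whole gene and can count transcripts that lack the deleted exons. In whole hippocampus, fewer cells of a type and less RNA per cell cannot be told apart. Over the 16861 genes tested, 995 (5.90%) were called higher in KO and 177 (1.05%) lower, the latter count being 48 to 323 with 1 library left out. The median log2 fold change of all genes tested was -0.01.

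Tmem30b, Otop1 and Ppm1n had 1 to 3 reads in all WT libraries together. Tmem30b (ENSMUSG00000034435, GRCm38 chromosome 12, 73543402 to 73546392, minus strand, 1 exon) encodes CDC50B, a partner subunit of some P4-type ATPases. It had 0, 0 and 1 WT reads and 75, 64 and 78 KO reads. The KO level was 3.69 ± 0.348 CPM (SD, n = 3), and the ratio of KO to WT counts per library size was 214, with an exact 95% interval of 38.0 to 8499 that covers counting error only. Otop1 (ENSMUSG00000051596, chromosome 5, 38275972 to 38304217, plus strand, 6 exons) had 2, 1 and 0 WT reads and 80, 98 and 106 KO reads. Its KO level was 4.84 ± 0.675 CPM (SD, n = 3) and the ratio was 93.4, with an interval of 31.7 to 456. Ppm1n (ENSMUSG00000030402, chromosome 7, 19276805 to 19280064, minus strand, 5 exons) had 1, 0 and 1 WT reads and 54, 65 and 75 KO reads. Its KO level was 3.30 ± 0.527 CPM (SD, n = 3) and the ratio was 95.8, with an interval of 26.2 to 796. Every KO library lay far above every WT library for each of these genes, but the size of each ratio rests on 1 to 3 WT reads, as the wide intervals show.

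Nup62cl and Klf14 had a few reads in every WT library. Nup62cl (ENSMUSG00000072944, chromosome X, 140006805 to 140062712, minus strand, 9 exons) had 6, 4 and 1 WT reads and 310, 339 and 348 KO reads. It went from 0.189 ± 0.128 to 17.0 ± 1.02 CPM (SD, n = 3), a fitted log2 fold change of 6.44 (SE 0.235), the highest KO count among the genes with at most 11 WT reads in this set. Klf14 (ENSMUSG00000073209, chromosome 6, 30956023 to 30959078, minus strand, 1 exon) had 2 reads in each WT library and 86, 103 and 67 KO reads. It went from 0.104 ± 0.00136 to 4.36 ± 0.955 CPM (SD, n = 3), a fitted log2 fold change of 5.31 (SE 0.347). The KO libraries of Klf14 were spread more widely than those of Nup62cl, and in both genes no KO library came near a WT one. These 5 genes passed the filter on low counts only through the KO libraries, so a difference was built into their being tested. Tmem30b and Klf14 have a single exon in GENCODE M21, so none of their reads can cross a splice junction.

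Arsi and Ecel1 were not silent in WT. Arsi (ENSMUSG00000036412, chromosome 18, 60911780 to 60918561, plus strand, 2 exons) encodes arylsulfatase I, an enzyme that cleaves sulfate esters. It had 27, 21 and 19 WT reads and 278, 292 and 321 KO reads. The level went from 1.15 ± 0.200 to 15.2 ± 1.06 CPM (SD, n = 3), a fitted log2 fold change of 3.71 (SE 0.154). Ecel1 (ENSMUSG00000026247, chromosome 1, 87147655 to 87156521, minus strand, 18 exons) had 70, 53 and 59 WT reads and 547, 426 and 439 KO reads. It went from 3.14 ± 0.404 to 24.0 ± 3.34 CPM (SD, n = 3), a fitted log2 fold change of 2.93 (SE 0.137). The lowest KO library exceeded the highest WT library 10.3-fold for Arsi and 6.15-fold for Ecel1, both on the CPM scale.

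**Figure D1:**
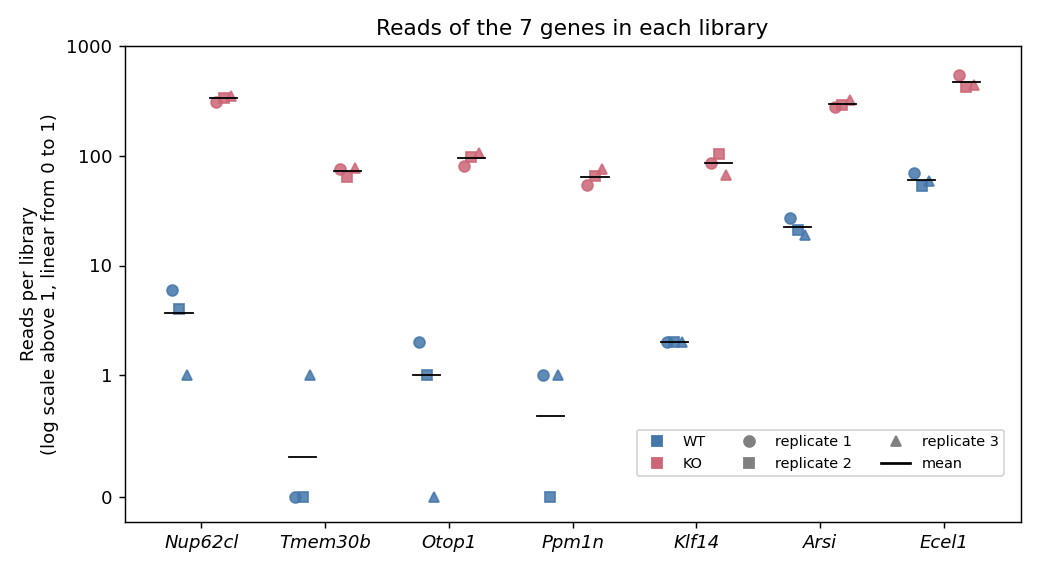
Reads of the 7 genes in each library, on a log scale above 1 and a linear scale from 0 to 1; colours are WT and KO, symbols are replicates 1 to 3 and bars are means (n = 3). The KO libraries of all 7 genes sit above their WT libraries, with 0 to 6 WT reads per library for the 5 genes on the left and 19 to 70 for Arsi and Ecel1.

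In 7 of 7 genes every KO library lay above every WT library, which held for 14.0% of all genes tested. The genes were chosen on these values, so nothing is read from that count. The rule was also met by others, since 90 genes tested had a WT mean under 5 CPM and a ratio of means over 5, and 83 of them are not described here. The first 2 below that ratio were Angptl8, at 4.98-fold from 0.260 CPM, and Gm11837, at 4.81-fold from 0.414 CPM. Inside it, Ecel1 stood at 7.67-fold and Arsi at 13.1-fold. With at most 11 WT reads and at least 194 KO reads, the limits of the 5 near-silent genes, there were 14 genes in the whole table tested.

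Levels of different genes were compared per kilobase (kb) of exon. In KO, Nup62cl was highest at 7.60 ± 0.455 CPM per kb, followed by Ecel1 at 6.87 ± 0.954 and Arsi at 5.10 ± 0.356 (SD, n = 3). The Nup62cl libraries, from 7.08 to 7.90, overlapped those of Ecel1, from 6.27 to 7.97, whereas Arsi, from 4.76 to 5.47, lay below both. The other 4 formed a lower group in KO, with Ppm1n at 1.48 ± 0.236 CPM per kb, Klf14 at 1.43 ± 0.312, Otop1 at 1.41 ± 0.196 and Tmem30b at 1.24 ± 0.117. Each neighbouring pair in this lower group overlapped between libraries, so their order is not resolved. Among 16820 genes tested with an exon length, the KO level of Nup62cl was at percentile 63.5, Ecel1 at 60.7 and Arsi at 53.1, so these 3 stood among genes of middle level. The KO levels of Ppm1n, Klf14, Otop1 and Tmem30b were at percentiles 27.2, 26.6, 26.3 and 24.1. In WT the level per kb of Ecel1 was at percentile 20.6 and that of Arsi at 9.20, while the other 5 were below percentile 1.

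**Figure D2:**
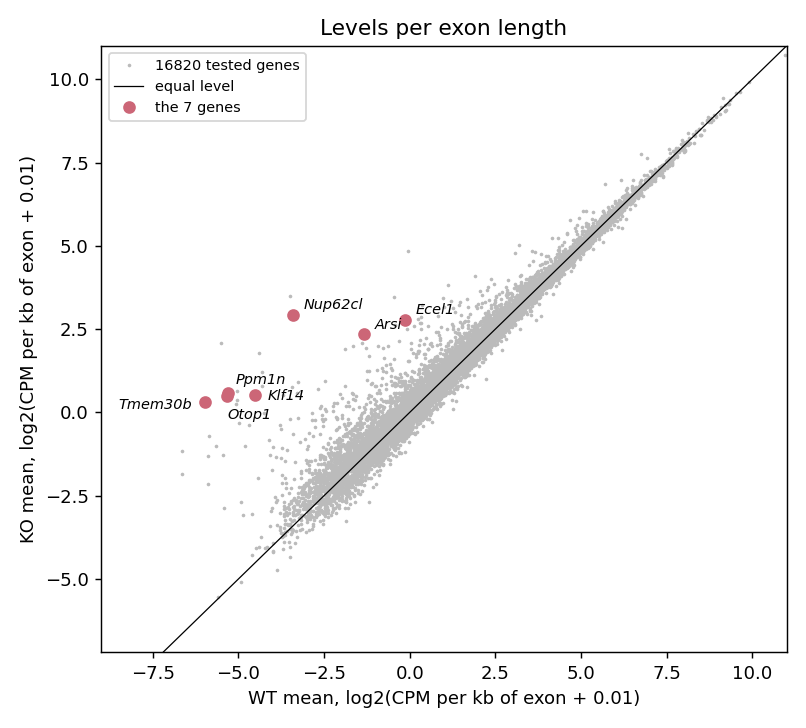
Mean level per kilobase of exon in WT (x axis) and KO (y axis), as log2(CPM per kb + 0.01), for 16820 genes tested (grey) and the 7 genes (red); the line marks equal levels. Nup62cl, Ecel1 and Arsi reach 7.60, 6.87 and 5.10 CPM per kb in KO, and the other 4 genes reach 1.24 to 1.48.

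The 7 genes did not share 1 order over the KO libraries. KO replicate 3 was the highest library for 5 of them on the CPM scale, KO replicate 2 for Klf14 and KO replicate 1 for Ecel1. The summed level of the 7 genes was 5.51, 4.23 and 4.32 CPM in WT and 72.9, 71.5 and 72.7 CPM in KO, with an SD of 0.786 CPM over the KO libraries. The coefficient of variation of the level over the KO libraries was 5.99% for Nup62cl, 6.99% for Arsi, 9.43% for Tmem30b, 14.0% for Otop1 and 16.0% for Ppm1n. These lay between percentile 35.4 and percentile 67.1 of genes whose KO level is within a factor of 2. Klf14 varied by 21.9%, above 88.8% of 3038 genes of like level, where counting alone gives 10.8%. Ecel1 varied by 13.9%, above 96.4% of 5081 genes of like level, whose median was 5.42%. Klf14 and Ecel1 thus differed more between KO libraries than most genes at their levels, and the library that was highest differed between them.

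The gene tested whose levels over the 6 libraries were nearest to each of the 7 was found by Euclidean distance in log2(CPM + 0.5). For Tmem30b it was Aqp5, a water channel, with 0, 1 and 2 WT reads and 71, 67 and 60 KO reads (distance 0.394). For both Klf14 (0.422) and Otop1 (0.579) it was Zar1, a gene known from oocytes, with 3, 0 and 1 WT reads and 80, 86 and 72 KO reads. Ppm1n was nearest to Bhlhe23, a helix-loop-helix transcription factor, with 1 read in each WT library and 64, 90 and 74 in KO (0.488). Nup62cl was nearest to Ltbp2, a matrix protein that binds latent TGF-beta, with 10, 6 and 3 WT reads and 336, 425 and 345 KO reads (0.567). Arsi was nearest to Samd11 (0.399), with 34, 21 and 22 WT reads and 257, 338 and 289 KO reads. Ecel1 was nearest to Loxl1, a lysyl oxidase of elastic fibres, with 62, 73 and 87 WT reads and 418, 451 and 485 KO reads (0.773). Their likeness in counts is fixed by the way they were picked.

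Genes related to the 7 by family, pathway or imprinted domain were taken from 9 lists of 147 genes, of which 130 were tested. Of these, 9 (6.92%) were called higher in KO and 3 lower, against 5.90% and 1.05% of all genes tested, and their median log2 fold change was -0.00059. Of the 9, Otop2, Otop3 and Gal passed the filter only through the KO libraries. The adjusted p-values quoted come from edgeR's quasi-likelihood test, by the Benjamini-Hochberg method across all genes tested.

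The clearest relatives were those of Otop1. Their list held otopetrins, members of the acid-sensing channel family and other proton-gated or proton-conducting channels. Of 9 tested, 3 rose, against 5.90% of all genes tested, with a list median of log2 0.32. Otop3 had 1, 1 and 4 WT reads and 51, 57 and 30 KO reads, a log2 fold change of 4.42 (SE 0.469, edgeR adjusted p = 2.59e-05). Otop2 had 9, 6 and 11 WT reads and 48, 43 and 42 KO reads, with log2 2.32 (SE 0.273, edgeR adjusted p = 7.04e-05). Asic4, a member of the acid-sensing channel family, had 135, 141 and 170 WT reads and 224, 311 and 242 KO reads, with log2 0.78 (SE 0.143, edgeR adjusted p = 0.00329). The libraries of the 2 groups did not overlap for any of the 3, as was the case upward for 14.0% of all genes tested. Otop3 and Otop2 passed the filter only through the KO libraries, so a difference was built into their being tested. The 6 channels that did not pass had log2 fold changes from -0.09 to 0.43, the latter for Asic3.

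Protein family relatives of the other 6 genes were mostly not called, and those called differed by less than 2-fold. Among 16 flippase genes tested, Tmem30a, the main partner subunit of P4-type ATPases in brain, stood at 342 ± 33.6 CPM in WT and 321 ± 11.9 in KO (log2 -0.09, edgeR adjusted p = 0.519). Atp8b1, a flippase ATPase, had 37, 48 and 44 WT reads and 71, 61 and 81 KO reads (log2 0.70, SE 0.185, edgeR adjusted p = 0.0352). Atp8b2, of the same class, had 2033, 2120 and 2024 WT reads and 1800, 1723 and 1659 KO reads (log2 -0.27, SE 0.0604, edgeR adjusted p = 0.0125). The call of Atp8b1 was lost by DESeq2 (adjusted p = 0.0903) and without KO replicate 1 (0.0928), KO replicate 3 (0.170), WT replicate 1 (0.127) or WT replicate 3 (0.0547). It was lost with the replicate block too (edgeR adjusted p = 0.0530). The call of Atp8b2 was lost without KO replicate 2 (edgeR adjusted p = 0.0569) or KO replicate 3 (0.103).

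Among 17 PP2C phosphatases tested beside Ppm1n, Ppm1m rose from 23.6 ± 2.10 to 34.4 ± 2.80 CPM (SD, n = 3; log2 0.55, SE 0.0893, edgeR adjusted p = 0.00140). Ppm1e, a phosphatase of CaM kinases, fell from 469 ± 23.7 to 373 ± 12.1 CPM (SD, n = 3; log2 -0.33, edgeR adjusted p = 0.00189). Ppm1k, a mitochondrial phosphatase of branched-chain amino acid breakdown, fell from 63.3 ± 2.14 to 53.6 ± 2.33 CPM (SD, n = 3; log2 -0.24, edgeR adjusted p = 0.0311). The Ppm1k call was lost with scaling by library size alone (edgeR adjusted p = 0.0516) and without KO replicate 2 (0.150), KO replicate 3 (0.169) or WT replicate 1 (0.113). Among 13 sulfatase genes tested beside Arsi, Sgsh, the lysosomal heparan sulfate sulfamidase, had 110, 108 and 120 WT reads and 159, 182 and 153 KO reads (log2 0.53, SE 0.127, edgeR adjusted p = 0.0204). Its call was lost without KO replicate 2 (edgeR adjusted p = 0.106), WT replicate 1 (0.0691) or WT replicate 2 (0.0628). Arsj, the sulfatase closest to Arsi by name, stood at 4.50 ± 0.400 CPM in WT and 5.59 ± 0.647 in KO (SD, n = 3; log2 0.31, edgeR adjusted p = 0.259) and did not pass; it was named after its value was seen.

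In the lists of KLF and SP factors, M13 metallopeptidases and nucleoporins, 0 genes were called by edgeR, DESeq2 or limma-voom. Of 21 KLF and SP factors tested, 3 had an unadjusted edgeR p under 0.05. The smallest were those of Klf9, a glucocorticoid-responsive factor, at 155 ± 5.27 CPM in WT and 139 ± 4.49 in KO (SD, n = 3; edgeR adjusted p = 0.149), and Klf15, at 33.0 ± 4.27 and 27.6 ± 3.82 CPM (edgeR adjusted p = 0.214). Of 5 metallopeptidases of the M13 family tested, 0 had an unadjusted edgeR p under 0.05. Ece2, an endothelin-converting enzyme, stood at 49.7 ± 2.12 CPM in WT and 54.3 ± 6.61 in KO (SD, n = 3), and Phex at 0.396 ± 0.143 and 0.511 ± 0.137. Of 27 nucleoporins tested, 2 had an unadjusted edgeR p under 0.05, Pom121 (log2 -0.18, edgeR adjusted p = 0.101) and Nup210l (log2 -0.71, edgeR adjusted p = 0.136). Nup62, the nucleoporin for which Nup62cl is named, stood at 32.5 ± 3.25 CPM in WT and 32.8 ± 0.528 in KO (SD, n = 3); it too was named after its value was seen. No stretch of 50 bases of the longest transcript of any of the 7 genes occurred in a transcript of another gene, so near-identical copies do not share their reads at that length.

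Klf14 lies in an imprinted domain of chromosome 6 with Mest, a paternally expressed gene. Of 10 genes of imprinted chromosome 6 domains tested, 1 was called, Peg10, at 27.7 ± 8.67 CPM in WT and 43.5 ± 5.58 in KO (SD, n = 3; log2 0.65, SE 0.168, edgeR adjusted p = 0.0303). That call was lost by DESeq2 (adjusted p = 0.176) and without KO replicate 1 (edgeR adjusted p = 0.123), KO replicate 3 (0.0650), WT replicate 1 (0.0624) or WT replicate 2 (0.0760). Peg10 is not among the 3 nearest protein-coding genes on either side of Klf14, where 0 genes were called. Mest itself stood at 17.8 ± 1.55 CPM in WT and 18.1 ± 1.11 in KO (SD, n = 3; edgeR adjusted p = 0.907).

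Because Ecel1 is known to rise in injured neurons, other axon injury genes were read as a list. Of 12 tested, 2 rose and 0 fell (median log2 -0.0027), against 5.90% and 1.05% of all genes tested. Gal, the neuropeptide galanin, had 5, 7 and 9 WT reads and 21, 31 and 33 KO reads (log2 1.98, SE 0.336, edgeR adjusted p = 0.00188). Sox11, a transcription factor of immature and regenerating neurons, rose from 18.7 ± 2.97 to 24.3 ± 0.969 CPM (SD, n = 3; log2 0.37, edgeR adjusted p = 0.0489). The Sox11 call was lost with RLE scaling (edgeR adjusted p = 0.0505) and without KO replicate 1 (0.138), KO replicate 2 (0.144), KO replicate 3 (0.105), WT replicate 1 (0.137) or WT replicate 3 (0.101). Atf3, an early injury factor, had 18, 23 and 15 WT reads and 17, 23 and 18 KO reads, and Sprr1a had a total of 1 read over the 6 libraries. Flrt3 had 897, 854 and 817 WT reads and 743, 695 and 802 KO reads, but did not pass (log2 -0.22, edgeR adjusted p = 0.0912). Every KO library was below every WT library for Flrt3, as for 11.2% of all genes tested. Gap43 (log2 -0.21, edgeR adjusted p = 0.163) and Npy (log2 -0.18, edgeR adjusted p = 0.210) did not pass either. On the higher side, Vgf did not pass (log2 0.16, edgeR adjusted p = 0.234), with an unadjusted edgeR p of 0.0454. Npw had too few reads to be tested, with 0, 0 and 1 in WT and 5, 5 and 9 in KO. Atf3, Sprr1a, Flrt3, Gap43, Npy, Vgf and Npw were named after their values were seen.

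**Figure D3:**
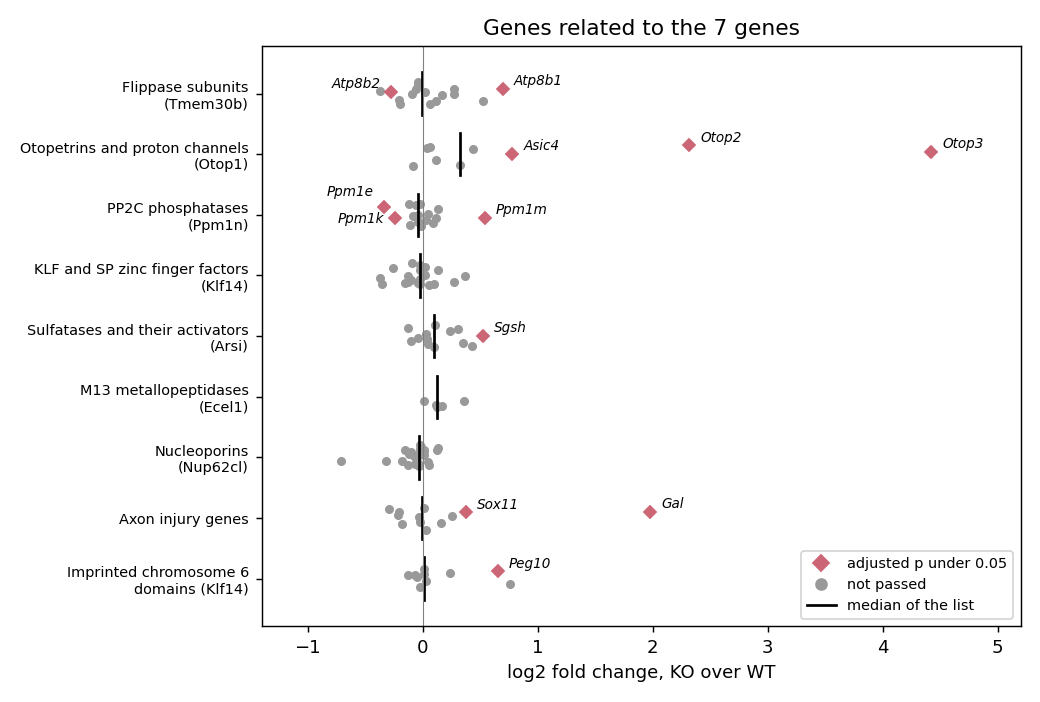
Log2 fold change, KO over WT, of each gene tested in the 9 lists of relatives (rows); diamonds passed an edgeR adjusted p of 0.05, grey points did not, and black bars are list medians. Otop3 and Otop2 stand at 4.42 and 2.32, Gal at 1.98, and the remaining genes called lie between -0.33 and 0.78.

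Genes beside the 7 were read to see whether their surroundings moved with them. Of the 3 nearest protein-coding genes on each side, 42 in all, 33 were tested, 5 (15.2%) were called higher and 1 lower, against 5.90% and 1.05% of all genes tested, with a median log2 fold change of -0.02. The count of higher genes was 3 without KO replicate 1, KO replicate 3 or WT replicate 1. None of the 7 overlapped another gene of the table.

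Beside Ecel1, Prss56, a serine protease known from the eye, had 0 reads in each WT library and 10, 13 and 11 in the KO libraries. That is at least 11.2-fold higher against a floor of 3 counts over the WT group (edgeR adjusted p = 0.000862). Prss56 passed the filter only through the KO libraries and was not tested with a minimum of 1 CPM in 3 libraries. It starts 26.8 kb from the start of Ecel1. It was the only 1 of the 6 neighbours of Ecel1 with enough reads to be tested; the other neighbours had 0 to 4 reads in any library.

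Beside Ppm1n, Rtn2, which encodes an endoplasmic reticulum shaping protein, starts 2.56 kb away. Rtn2 rose from 67.2 ± 5.85 to 101 ± 6.42 CPM (SD, n = 3; log2 0.58, SE 0.0733, edgeR adjusted p = 0.000132), with 1422, 1166 and 1310 WT reads and 1833, 2007 and 2079 KO reads. On the other side the nearest gene, Vasp, which encodes an actin regulator, stood at 13.8 ± 0.848 CPM in WT and 14.2 ± 0.410 in KO (SD, n = 3; edgeR adjusted p = 0.825). Beside Otop1, Drd5, a dopamine receptor gene, rose from 10.8 ± 1.11 to 14.3 ± 0.548 CPM (SD, n = 3; log2 0.41, edgeR adjusted p = 0.0288). Its call was lost without KO replicate 1 (edgeR adjusted p = 0.0762), KO replicate 2 (0.0638), KO replicate 3 (0.134), WT replicate 1 (0.104) or WT replicate 3 (0.0570). The gene nearest to Otop1, Tmem128, did not pass (log2 -0.06, edgeR adjusted p = 0.743).

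Arsi lies beside Camk2a, the gene that encodes CaMKIIα, on the same strand, and starts 13.8 kb from its start. Camk2a stood at 4785 ± 208 CPM in WT and 4521 ± 226 in KO (SD, n = 3; log2 -0.08, edgeR adjusted p = 0.387) and did not pass. CreERT2 was driven by the CamKIIα promoter, and neither how much of that locus the transgene carries nor its presence in WT is given in the sources used here. For Arsi and its neighbours, loss of the enzymes and the transgene therefore cannot be told apart. Slc6a7, a proline transporter gene on the far side of Camk2a, rose from 113 ± 3.22 to 162 ± 12.1 CPM (SD, n = 3; log2 0.51, SE 0.0653, edgeR adjusted p = 0.000147). Cd74, the invariant chain of antigen presentation, had 33, 29 and 36 WT reads and 80, 42 and 81 KO reads (log2 1.03, SE 0.249, edgeR adjusted p = 0.0216). The Cd74 call was lost without KO replicate 1 (edgeR adjusted p = 0.0960), KO replicate 3 (0.121), WT replicate 1 (0.0719) or WT replicate 2 (0.0825).

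Beside Nup62cl, Pih1h3b starts 0.167 kb from the Nup62cl start on the upstream side and had too few reads to be tested, with 4, 1 and 1 in WT and 2, 7 and 3 in KO. The nearest neighbour tested, Rbm41, did not pass (log2 -0.21, edgeR adjusted p = 0.476). Prps1, an enzyme gene of nucleotide synthesis 394 kb away, fell from 67.4 ± 2.45 to 58.0 ± 1.05 CPM (SD, n = 3; log2 -0.22, edgeR adjusted p = 0.0406). The Prps1 call was lost by DESeq2 (adjusted p = 0.0535), with library size alone (edgeR adjusted p = 0.0656), with the replicate block (0.0637), and without KO replicate 1 (0.134), KO replicate 2 (0.162), KO replicate 3 (0.136), WT replicate 1 (0.129) or WT replicate 3 (0.0541). No neighbour of Tmem30b or Klf14 was called, the nearest tested being Prkch (log2 0.27, edgeR adjusted p = 0.474) and Copg2 (log2 -0.02, edgeR adjusted p = 0.871). Among the neighbours of the 5 near-silent genes, then, only Rtn2, Drd5 and Prps1 were called, each by less than 2-fold.

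**Figure D4:**
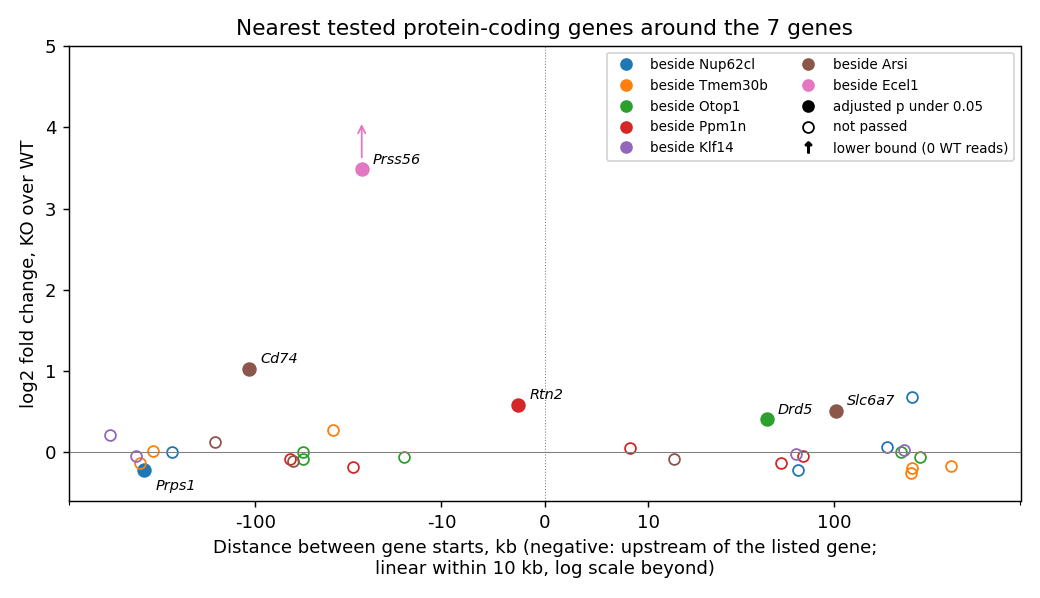
Log2 fold change, KO over WT, of the 33 neighbours tested against the distance between gene starts in kb (negative is upstream of the gene named in the legend; log scale beyond 10 kb); filled points passed an edgeR adjusted p of 0.05. Prss56, with 0 WT reads, is drawn at its lower bound of 11.2-fold with an arrow; Rtn2 at 2.56 kb and Slc6a7 rose by log2 0.58 and 0.51.

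Markers of other cell types that can hold these transcripts were summed in each library, and their part in the levels of the 7 genes was not tested. Choroid plexus and ependymal markers summed to 48.9 to 69.9 CPM in WT and 84.5 to 148 CPM in KO, with 1 of 13 tested called, Kl (22.0 ± 1.37 to 58.9 ± 3.45 CPM, SD, n = 3; edgeR adjusted p = 2.77e-08). The list median was log2 0.49, and 3 of the genes (F5, Kl and Ttr) had an unadjusted edgeR p under 0.05, each higher in KO. Kl encodes klotho, which neurons also express. Ttr, the most abundant choroid plexus transcript, had 374, 114 and 139 reads in WT and 1155, 31 and 1103 in KO. KO replicate 2 thus had fewer Ttr reads than any WT library, as it did for Aqp1 (4 reads, 9 to 15 in WT). Other markers of the list were mixed there. Clic6 had 16 reads in that library (42 and 40 in the other KO libraries), F5 had 18 (44 and 55) and Slc4a5 had 1 (5 and 8). These reads lay within the WT range, which was 12 to 25 for Clic6, 14 to 25 for F5 and 1 to 4 for Slc4a5. KO replicate 2 also had 1069 Kl reads (392 to 451 in WT), 21 Cldn2 reads (4 to 19), 12 Otx2 reads (4 to 11) and 16 Folr1 reads (4 to 20). The genes given here for KO replicate 2 were named after their values were seen. Epithelial markers summed to 11.1 to 14.6 CPM in WT and 28.2 to 32.7 in KO. Only Spint2, a protease inhibitor gene, had enough reads to be tested, and it rose (10.9 ± 1.26 to 27.2 ± 2.00 CPM, SD, n = 3; edgeR adjusted p = 1.31e-06). The other 12 listed genes, Epcam and Cdh1 among them, had at most 22 reads in any library. Some were higher by reads in all KO libraries than in all WT ones, as by CPM for 14.0% of all genes tested. Cldn7 had 0, 1 and 1 WT reads and 7, 5 and 6 KO reads. Grhl2 had 1, 2 and 6, then 7, 10 and 11, and Krt19 2, 1 and 3, then 5, 4 and 4. Cldn4 had 1, 0 and 0, then 2 in each. Krt8 (5, 3 and 6, then 4, 2 and 1) and Esrp1 (4, 2 and 1, then 2, 0 and 1) went lower on average. So did Krt18 (10, 6 and 12, then 8, 6 and 11), and the libraries of Krt8, Esrp1 and Krt18 overlapped between the groups. The untested epithelial genes given with reads were named after their values were seen.

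Markers of taste and inner ear receptor cells, where Otop1 is known from, summed to 42.9 to 46.8 CPM in WT and 40.6 to 48.1 in KO. None of 5 tested was called by edgeR, DESeq2 or limma-voom, 1 (Otof, log2 -0.28, edgeR adjusted p = 0.128) had an unadjusted p under 0.05, and Atoh1, Gnat3 and Chrna9 had no read in any library. Plcb2 had the next smallest p (log2 0.21, edgeR adjusted p = 0.459). Among genes of this list with too few reads to be tested, Trpm5 had 3, 2 and 2 WT reads and 5, 6 and 7 KO reads. The libraries of Pou4f3, Tmc1, Calhm1 and Slc26a5 overlapped between the groups. Photoreceptor markers summed to 3.47 to 5.28 CPM in WT and 4.82 to 6.39 in KO, with 0 of 2 tested called by the same tools and 0 under an unadjusted edgeR p of 0.05. These were Sag (log2 0.58, edgeR adjusted p = 0.300) and Nrl (log2 0.27, edgeR adjusted p = 0.623). Crx, Gngt1 and Pdc had no read. Germ cell markers summed to 10.1 to 13.2 CPM in WT and 10.9 to 11.4 in KO, with 0 of 4 called by those tools and 0 under an unadjusted edgeR p of 0.05, the smallest being those of Ddx4 and Sycp3 (edgeR adjusted p = 0.250 and 0.383). Of the listed germ cell genes, 5 had no read. Mael, too low to be tested, had 0, 0 and 1 WT reads and 2, 2 and 10 KO reads. Zp3, Acrv1, Prm1 and Prm2 overlapped between the groups. The untested genes given with reads in these lists were named after their values were seen. The summed levels of the taste and inner ear, photoreceptor and germ cell lists overlapped between the groups.

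Markers of neighbouring brain regions summed to 57.2 to 66.2 CPM in WT and 72.9 to 76.2 in KO, and 3 of 11 tested rose, against 5.90% of all genes tested. Chrna3, a nicotinic receptor subunit of the habenula, had 18, 8 and 11 WT reads and 67, 66 and 67 KO reads (log2 2.41, edgeR adjusted p = 2.26e-05). Gpr151, a habenular receptor, had 10, 17 and 9 WT reads and 44, 40 and 32 KO reads (log2 1.66, edgeR adjusted p = 0.00235). Ppp1r1b (DARPP-32) rose by log2 0.40 (edgeR adjusted p = 0.0211), a call lost without KO replicate 2 (0.0682), KO replicate 3 (0.121), WT replicate 1 (0.0935) or WT replicate 2 (0.0748). Chrna3 and Gpr151 passed the filter only through the KO libraries, and Sim1 and Gbx2, which mark hypothalamus and thalamus, had no read. The 8 tested genes that did not pass ranged from log2 -0.33 (Rgs16, edgeR adjusted p = 0.173) to 0.29 (Drd2, 0.514). Among them Tac2 stood at log2 -0.08, Tcf7l2 at -0.12 and Chrnb3 at 0.17. The genes named here that did not pass were named after their values were seen.

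Among resident cell types, Gfap of astrocytes rose by log2 0.41 (edgeR adjusted p = 0.000793), 1 of 7 tested, with a summed level of 1670 to 1840 CPM in WT and 1991 to 2028 in KO. Of the 7, 4 had an unadjusted edgeR p under 0.05, each higher in KO (list median log2 0.19). Over all genes tested, 5.90% were called higher and 1.05% lower by adjusted p. The share of all genes under an unadjusted p of 0.05 is not given here, so counts at that threshold have no background beside them. Mbp of oligodendrocytes rose by log2 0.25 (edgeR adjusted p = 0.0126), 1 of 7, the sums being 4831 to 5199 and 5337 to 6003 CPM. Of these oligodendrocyte markers, 6 had an unadjusted edgeR p under 0.05, each higher in KO (list median log2 0.22), and DESeq2 called 2. The Mbp call was lost without KO replicate 2 (edgeR adjusted p = 0.0564) or KO replicate 3 (0.107). Pdgfrb of pericytes rose by log2 0.37 (edgeR adjusted p = 0.0337), 1 of 10 vascular and meningeal genes, with sums of 389.6 to 400.4 and 389.5 to 484 CPM. Its call was lost without KO replicate 1 (edgeR adjusted p = 0.111), KO replicate 3 (0.202), WT replicate 1 (0.0992), WT replicate 2 (0.0607) or WT replicate 3 (0.0518). In the vascular and meningeal list, 3 genes (Pdgfrb, Col1a1 and Igf2) had an unadjusted edgeR p under 0.05, each higher in KO. Of 7 microglial markers, 0 were called by edgeR, DESeq2 or limma-voom and 4 had an unadjusted edgeR p under 0.05, the smallest being those of Cx3cr1 (adjusted p = 0.0610) and Csf1r (0.140), with sums of 264 to 306 and 304 to 344 CPM. Neurod6 of principal neurons fell by log2 -0.34 (edgeR adjusted p = 0.00332), 1 of 8, with sums of 7273 to 7791 CPM in WT and 6693 to 7439 in KO, so the tissue in both groups carried the markers of its label.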

How the data were processed

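The authors deposited a table of raw read counts per gene for the 6 libraries. The submitters' processing notes name cutadapt 1.18, HISAT2, HTSeq 0.11.1 and the build GRCm38 (mm10). Not given in the sources used here are the version of HISAT2, the strand option and the gene annotation. Symbols, coordinates and exons were taken from GENCODE M21 (360 identifiers, holding 0.0512% of all counts, had no match) and start windows from RefSeq (GRCm38.p6).

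Genes were filtered with filterByExpr (minimum count 10, minimum total 15), scaled by TMM and compared with edgeR's quasi-likelihood test, group being its single term, with Benjamini-Hochberg adjustment over 16861 genes and a threshold of 0.05. The 7 genes themselves were given no test, since the same comparison chose them. The 7 genes, the 9 lists of relatives, the 11 marker lists and the naming rule were chosen with earlier results of these data known. The rule named up to 4 genes called per list (or the 2 with the smallest p), every neighbour called, the nearest neighbour tested and the most alike gene. Intervals of count ratios are exact binomial at 95% and use TMM-scaled library sizes. Alternatives were DESeq2, limma-voom, scaling by RLE or by library size alone, 2 other filters, a replicate block, neighbours within 250 kb and leaving out each library. The test was checked on simulated counts. Protein identity between relatives was not computed. Genes withheld for evaluation were left out of the lists and are not reported here. Libraries of 1 group differed beyond sampling noise. Software was R 4.3.3, edgeR 4.0.16, limma 3.58.1 and DESeq2 1.42.0.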

Additional observations from a re-analysis of the deposited data

How the results depend on the processing

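The 7 genes kept their direction under all 13 alternatives. They were chosen for a large difference in these same libraries, so that outcome was fixed by the choice and nothing is read from it. The fitted log2 fold change ranged from 6.64 to 9.17 for Tmem30b, 6.00 to 6.96 for Nup62cl, 5.85 to 7.22 for Otop1, 5.84 to 6.68 for Ppm1n and 5.06 to 5.47 for Klf14, values that rest on 1 to 11 WT reads. It ranged from 3.61 to 3.85 for Arsi and 2.81 to 3.04 for Ecel1. Over all genes, the count called lower was 279 with no filter on low counts and 48 to 323 with 1 library left out (102, 67 and 48 without KO replicates 1, 2 and 3, and 323 without WT replicate 3). The count called higher was 1166 with no filter on low counts and 676 to 1101 with 1 library left out. With 1 library left out, 1 to 4 relatives were called lower, the count being 1 without KO replicate 2 or KO replicate 3. The neighbours called higher numbered 3 to 4 with 1 library left out, and 9 among all 49 genes tested that start within 250 kb. The neighbour called lower, Prps1, gave 0 to 1 calls with 1 library left out. The count was 0 by DESeq2 (1 at an unadjusted p under 0.05), 0 with library size alone (1), 0 with the replicate block (2) and 0 within 250 kb (1), where Prps1 lies outside the window. The deviations of same-numbered libraries correlated at 0.00465, -0.00921 and -0.024, and those of differently numbered libraries at -0.124 to 0.128. Such values cannot settle whether the samples were paired. A replicate block gave 960 genes called higher and 149 lower, with 8 relatives called higher. The cause of these shifts was not tested. Depth limits the ratios of the genes with 1 to 3 WT reads, as the widths of their intervals show.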
